A study of Homo sapiens with 12 samples.

Results

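Oligosaccharyltransferase is the membrane enzyme of the endoplasmic reticulum that attaches N-linked glycans to new proteins, and the footprints of ribosomes on the mRNAs of 10 of its subunits were followed through 12 human libraries. The genes were TUSC3, MAGT1, STT3A, STT3B, RPN1, RPN2, DDOST, DAD1, OST4 and OSTC, each counted on 1 RefSeq coding sequence of the 19305 in the tables. They were chosen by name, with TUSC3 included because its counts had been seen to differ between the immunoprecipitation (IP) labels. That contrast is therefore described here without a test.

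Ribosome profiling sequences the mRNA fragments covered by ribosomes, and the study used it to ask how loss of eIF2A, a protein able to bring initiator tRNA to the ribosome, alters translation. Of 8 libraries from HEK293T, a human embryonic kidney line, 2 carried each combination of eIF2A or control siRNA with IP of eIF4E, the main cytoplasmic cap-binding protein, or CBP80, a subunit of the nuclear cap-binding complex. All 8, controls included, came from cells given sodium arsenite, an oxidative stressor. The other 4, with no IP and no arsenite in their labels, were made from the human embryonic stem cell line H9, 2 with eIF2A shRNA and 2 with control shRNA. Each pair of libraries in a group is numbered set 1 and set 2. The labels do not say that sets are separate cultures, so the p-values below rest on a library-to-library spread that could be purely technical. That spread is in large part shared across genes. A footprint count depends on mRNA level as well as translation. In bulk samples fewer cells of a kind and less RNA per cell cannot be told apart.

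The enzyme moves a preassembled oligosaccharide from dolichol, a membrane lipid, to asparagines of proteins entering the endoplasmic reticulum. Its catalytic subunit is either STT3A, in complexes that work beside the translocon while the protein is being made, or STT3B, in complexes that glycosylate sites skipped earlier. MAGT1 and its paralog TUSC3 are alternative oxidoreductase subunits of the STT3B-type complex, OSTC belongs to the STT3A-type complex, and RPN1, RPN2, DDOST, DAD1 and OST4 are shared.

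HEK293T libraries held 4331459 to 5775177 coding reads and H9 libraries 937990 to 1878700. Levels are given as CPM, reads per 1000000 coding reads, and they are compared between libraries, not between genes, because coding lengths were not used. The eIF4E and CBP80 libraries of the same siRNA and set had a chi-square of 1.01 to 1.03 per degree of freedom, where 1 is pure sampling noise. Libraries of the same group from the other set differed by 3.95 to 5.52. Each such IP pair was therefore also summed and counted as 1 sample, called runs summed below, though the labels give them as separate IPs. In H9, libraries of the same set with eIF2A and control shRNA differed by only 1.04 and 1.07, against 2.75 and 3.13 between sets of the same shRNA.

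EIF2A itself, the knockdown target, was not lower throughout. With IP runs summed, set 1 had 96.0 CPM with eIF2A siRNA, against 83.2 CPM with control siRNA, a ratio of 1.15 (95% interval 1.05 to 1.26, counting error only, as for all intervals of ratios). Set 2 had 46.7 CPM with eIF2A siRNA, against 83.5 CPM with control siRNA, a ratio of 0.559 (0.5 to 0.626). The fitted log2 change over both sets was -0.33 ± 0.36 (edgeR adjusted p = 0.643). In H9, EIF2A had 110.2 and 68.2 CPM in sets 1 and 2 with eIF2A shRNA, against 103.4 and 60.9 CPM with control shRNA. Of these libraries, only those labelled eIF2A siRNA set 2 had lower EIF2A counts than their controls, so groups are named below by label.

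TUSC3 was higher in the libraries labelled eIF4E than in those labelled CBP80 in every matched pair. With eIF2A siRNA it had 58.8 CPM in the eIF4E library of set 1, against 30.4 CPM in the CBP80 library, a ratio of 1.93 (1.58 to 2.37). In set 2 with eIF2A siRNA it had 35.2 CPM with eIF4E IP, against 20.1 CPM with CBP80 IP, a ratio of 1.75 (1.38 to 2.23). The 4 libraries labelled eIF4E lay above all 4 labelled CBP80. With control siRNA TUSC3 had 38.7 CPM with eIF4E IP, against 21.5 CPM with CBP80 IP in set 1, a ratio of 1.80 (1.44 to 2.27). In set 2 with control siRNA it had 36.5 CPM with eIF4E IP, against 27.5 CPM with CBP80 IP, a ratio of 1.33 (1.05 to 1.68). The mean log2 ratio was 0.75 ± 0.24 (SD, n = 4 pairs), from 108 to 279 reads per library.

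The other subunits did not show a gap of this size. Their 36 ratios lay between 0.876 and 1.12. The 95% intervals were not corrected for their number, and the share over all genes was not counted. Of the 36 intervals, 2 left out 1. These were RPN1 with eIF2A siRNA in set 2, at 0.928 (0.862 to 0.999), and OSTC with control siRNA in set 2, at 0.876 (0.791 to 0.970). MAGT1, the paralog of TUSC3, had 556.1 CPM with eIF4E IP, against 547.2 CPM with CBP80 IP in set 1 with eIF2A siRNA. Its 4 ratios ran from 0.974 to 1.02. Of the 10 subunits, TUSC3 was higher with eIF4E IP in all 4 pairs and none was lower in all 4, while 6.43% of 6626 genes with a mean of at least 20 CPM were higher and 6.31% were lower in all 4. Among those genes, by mean log2 ratio after adding 1 CPM, TUSC3 ranked 1 at 0.73, and the next gene, TMEM259, stood at 0.39. These values restate the contrast that brought TUSC3 into the list.

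**Figure D1:**
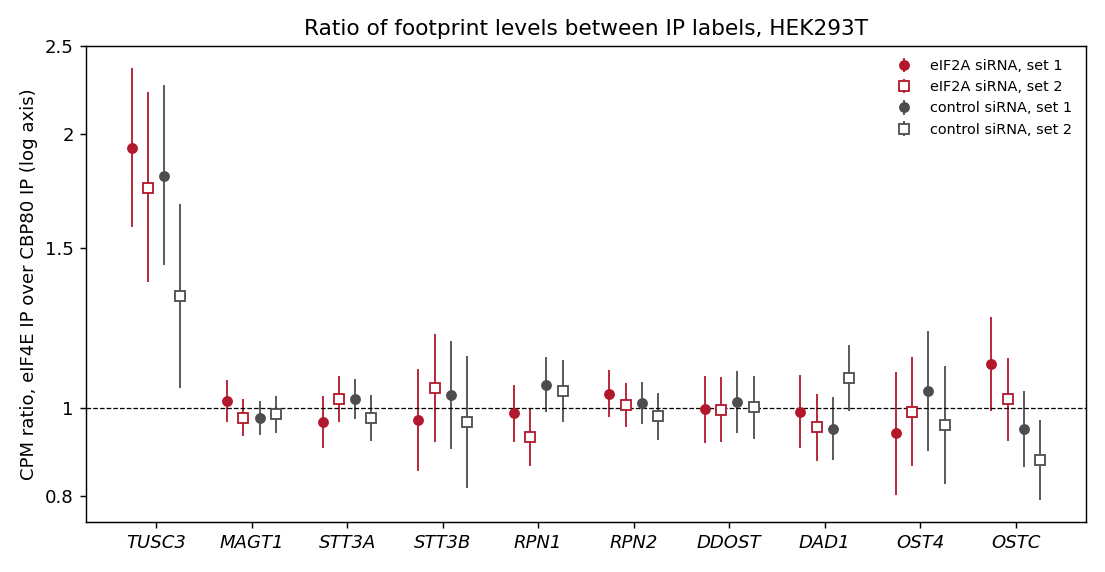
Ratio of CPM in eIF4E-labelled over CBP80-labelled libraries for each subunit in 4 matched pairs, on a log axis with 95% counting intervals; the dashed line at 1 marks equal levels. The 4 TUSC3 points lie between 1.33 and 1.93, and those of the other subunits between 0.876 and 1.12.

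The genes whose pattern was most like that of TUSC3 over the 8 HEK293T libraries moved far less. By Pearson correlation of log2(CPM + 1), among genes of at least 20 CPM, these were CDCA7L (r = 0.91), FOXK1 (0.90), TIMM50 (0.87), ATG2A (0.86) and EN2 (0.83). Each was higher with eIF4E IP in all 4 pairs, with mean log2 ratios of 0.09, 0.19, 0.10, 0.13 and 0.10. That direction was favoured by the choice of genes for likeness to TUSC3, so it is not a separate result. The other 9 subunits had r between -0.39 for MAGT1 and 0.38 for RPN1. The points of each r share depth and near-identical library pairs, and the genes were picked for r, so no p is given.

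By group mean, TUSC3 was highest in H9 and lowest in the CBP80-labelled HEK293T libraries. It averaged 77.8 ± 19.5 CPM with eIF2A shRNA and 86.0 ± 9.31 CPM with control shRNA in H9 (SD, n = 2 each), and these ranges overlapped. In HEK293T it averaged 47.0 ± 16.7 CPM with eIF2A siRNA and 37.6 ± 1.54 CPM with control siRNA under eIF4E IP, again with overlap. Under CBP80 IP it averaged 25.3 ± 7.26 CPM with eIF2A siRNA and 24.5 ± 4.25 CPM with control siRNA, overlapping too. The lowest H9 library, at 64.0 CPM, lay above the highest HEK293T library, at 58.8 CPM.

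**Figure D2:**
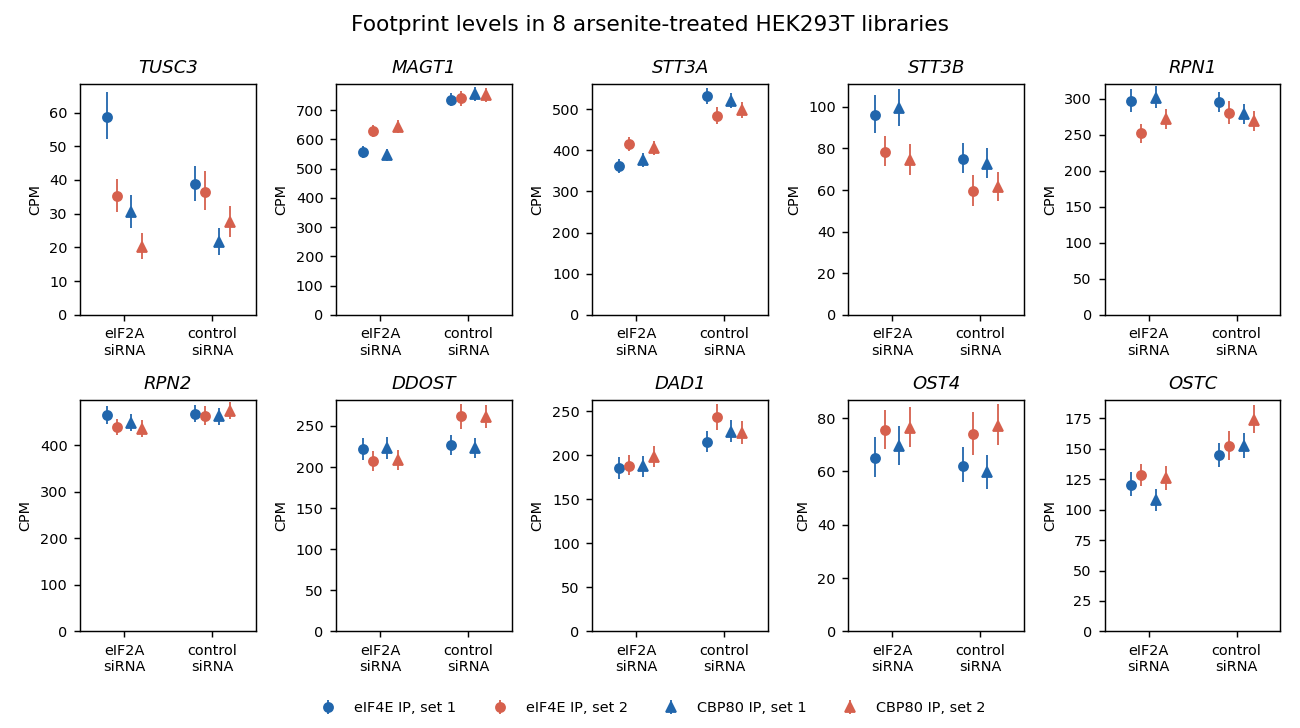
Level of each subunit in the 8 HEK293T libraries, in CPM; eIF2A siRNA stands left of control siRNA, circles are eIF4E IP and triangles CBP80 IP, blue is set 1 and red set 2, and bars are 95% Poisson intervals. MAGT1, STT3A, OSTC and DAD1 lie lower with eIF2A siRNA in both sets, and STT3B lies higher. RPN2 and DDOST also lie lower, though only slightly in set 1. In TUSC3 the circles lie above the triangles.

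The siRNA comparison asked which genes differ between eIF2A and control siRNA, here across the subunits by role. Counts were fitted with edgeR's quasi-likelihood test over all genes, with Benjamini-Hochberg adjustment, and a gene was called at an adjusted p under 0.05. The test borrows part of each gene's spread from other genes. With runs summed, the median gene had 96.7 borrowed degrees of freedom, against 2 of its own. The p and SE there rest mostly on a spread shared across genes, and little on that of the subunit. In the fit of all 8 HEK293T libraries these were 11.4 and 4. All 10 subunits passed the count filter. Subunits of both types of complex were lower, and STT3B stood higher without passing the test. In the summed libraries 3 of 10 subunits fell and none rose, against 6.29% of 12331 genes that fell and 6.15% that rose, or 12.4% either way, though with library size alone as the scaling only STT3A was called. The subunits' median log2 change was -0.21, against 0.00 for all genes.

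Of the catalytic subunits, STT3A fell and STT3B did not pass the test. STT3A had 369.3 and 410.4 CPM in sets 1 and 2 with eIF2A siRNA, runs summed, against 526.8 and 491.7 CPM with control siRNA. It fell by 0.47 ± 0.14 (log2, SE) with an edgeR adjusted p of 0.0166. Both eIF2A siRNA values lay below both control values. STT3B had 97.8 and 76.6 CPM with eIF2A siRNA, against 73.8 and 60.5 CPM with control siRNA, a log2 change of 0.28 ± 0.14 that did not pass (edgeR adjusted p = 0.167). Here too the groups did not overlap, but the share of all genes without overlap was not counted. With the set number added to the fit STT3B was called higher (edgeR adjusted p = 0.0273). That fit called 2990 of 12331 genes, in either direction. STT3B made up 20.9% (95% Clopper-Pearson interval 19.8 to 22.1) and 15.7% (14.8 to 16.7) of the reads of STT3A plus STT3B in sets 1 and 2 with eIF2A siRNA, against 12.3% (11.5 to 13.1) and 11.0% (10.1 to 11.8) with control siRNA.

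Of the oxidoreductase subunits, MAGT1 fell and TUSC3 did not pass the test. MAGT1 had 551.5 and 635.3 CPM with eIF2A siRNA, against 745.4 and 746.8 CPM with control siRNA, and fell by 0.41 ± 0.14 (edgeR adjusted p = 0.0418). TUSC3 had 44.1 and 27.9 CPM with eIF2A siRNA, against 30.1 and 31.6 CPM with control siRNA. Its ratio was 1.47 (1.27 to 1.70) in set 1 and 0.884 (0.752 to 1.04) in set 2, so the sets pointed opposite ways, and the fitted log2 change was 0.13 ± 0.15 (edgeR adjusted p = 0.646). TUSC3 made up 7.41% (6.75 to 8.11) and 4.21% (3.76 to 4.69) of TUSC3 plus MAGT1 reads in sets 1 and 2 with eIF2A siRNA, against 3.88% (3.48 to 4.30) and 4.06% (3.62 to 4.53) with control siRNA.

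OSTC, of the STT3A-type complex, had 114.1 and 127.0 CPM with eIF2A siRNA, against 148.7 and 164.1 CPM with control siRNA. It fell by 0.46 ± 0.14 (edgeR adjusted p = 0.0159), with ratios of 0.768 and 0.774 in sets 1 and 2. These were the most alike between sets of the 3 subunits that fell.

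None of the shared subunits passed the test, though DAD1 did with the set number added to the fit (edgeR adjusted p = 0.00972), which called 2990 of 12331 genes. DAD1, a small core subunit, had ratios of 0.844 and 0.826 in sets 1 and 2 and a log2 change of -0.35 ± 0.14 (edgeR adjusted p = 0.0762). DDOST, a subunit of the core near the catalytic site, had ratios of 0.989 and 0.795, with a log2 change of -0.27 ± 0.14 (edgeR adjusted p = 0.194). The ribophorins RPN1 and RPN2 had log2 changes of -0.09 ± 0.14 and -0.15 ± 0.14, and OST4, a very small subunit that stabilises the catalytic core, -0.01 ± 0.14. Summed over all 10 genes, footprints came to 2390 to 2460 CPM in the 4 libraries with eIF2A siRNA, against 2774 to 2820 CPM in the 4 with control siRNA. MAGT1 and STT3A held much of this gap, so it is not a measure of the shared subunits.

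Taken by IP label, with the near-identical libraries kept apart, the estimates were close and fewer passed. Under CBP80 IP 1 of 10 subunits was called, OSTC at -0.56 ± 0.13 (edgeR adjusted p = 0.0331), against 4.02% of 11778 genes (1.55% higher, 2.47% lower). STT3A missed at -0.46 ± 0.13 (edgeR adjusted p = 0.0508). Under eIF4E IP 0 of 10 were called, against 3.23% of 11778 genes (1.24% higher, 2% lower), and 5 of the 10 had an unadjusted edgeR p under 0.05, as did 2695 of the 11778 genes. With DESeq2, 3 subunits were called under CBP80 IP, against 4.15% of genes, and 1 under eIF4E IP, against 3.7%. In edgeR's eIF4E comparison STT3A stood at -0.47 ± 0.13 (edgeR adjusted p = 0.054) and OSTC at -0.33 ± 0.13 (0.154). The difference of the siRNA effect between IP labels was tested by interaction, and 0 of 10 subunits and 0% of 11778 genes passed by edgeR or DESeq2. That difference was 0.26 for TUSC3 (95% interval -0.39 to 0.91) and 0.23 for OSTC (-0.17 to 0.63). No subunit and 96 genes had an unadjusted edgeR p under 0.05 in it. Its spread came from between sets (chi-square 3.95 to 5.52 per degree of freedom), while IP labels differed within sets by 1.01 to 1.03. A pass was therefore unlikely, and the test does not settle whether the effect differs. With the set number added to the fit, no subunit and no other gene passed either.

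Calls were lost in some fits that left out 1 library, but such fits leave 1 library in a group and have little power. In the summed fit they were lost without either control or without eIF2A siRNA set 1, but not without set 2, where EIF2A was low. Leaving out 1 summed library, the log2 change ran from -0.61 to -0.35 for STT3A, -0.58 to -0.27 for MAGT1 and -0.60 to -0.34 for OSTC. Under CBP80 IP, OSTC ran from -0.73 to -0.41 leaving out 1 library. Unique reads outside coding sequences also moved with the label, at 42.2 to 51.1% with eIF2A siRNA and 35.2 to 40.1% with control siRNA, and their part in these results was not tested.

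**Figure D3:**
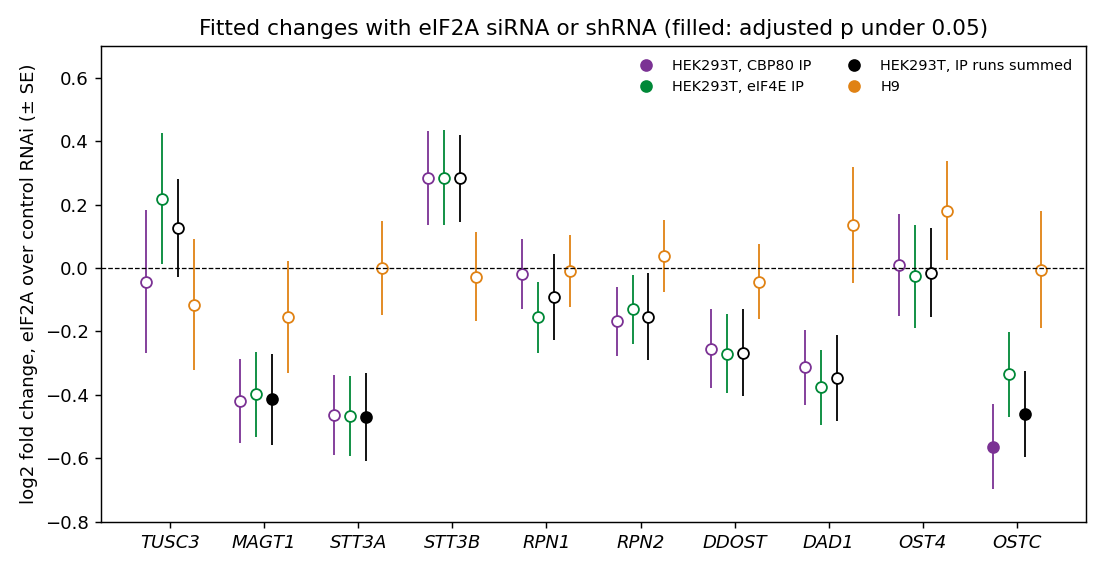
Fitted log2 change with eIF2A siRNA or shRNA over control for each subunit, with the standard error; filled points passed an edgeR adjusted p of 0.05. Filled points appear for OSTC under CBP80 IP and, with IP runs summed, for MAGT1, STT3A and OSTC, all below 0, and none for H9.

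Promoters are shown for the 3 subunits called lower in the summed fit, and whether these genes vary together was not tested. The sequences are the 250 bases before the start in RefSeq's table for GRCh38.p14, a newer build than the hg19 of the files, with CCAAT boxes on either strand in capitals. STT3A lies at chr11:125592602-125592851 (plus strand), MAGT1 at chrX:77895569-77895818 (minus strand) and OSTC at chr4:108650349-108650598 (plus strand).
STT3A: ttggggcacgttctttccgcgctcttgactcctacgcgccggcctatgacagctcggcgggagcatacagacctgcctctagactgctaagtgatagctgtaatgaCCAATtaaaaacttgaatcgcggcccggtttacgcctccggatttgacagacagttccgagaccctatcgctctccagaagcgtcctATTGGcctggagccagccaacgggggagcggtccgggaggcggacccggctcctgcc
MAGT1: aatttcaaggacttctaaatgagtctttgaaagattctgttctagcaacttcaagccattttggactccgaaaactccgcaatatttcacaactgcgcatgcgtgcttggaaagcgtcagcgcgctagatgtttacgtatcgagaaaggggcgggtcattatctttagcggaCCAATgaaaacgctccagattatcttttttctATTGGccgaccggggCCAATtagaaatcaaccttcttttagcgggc
OSTC: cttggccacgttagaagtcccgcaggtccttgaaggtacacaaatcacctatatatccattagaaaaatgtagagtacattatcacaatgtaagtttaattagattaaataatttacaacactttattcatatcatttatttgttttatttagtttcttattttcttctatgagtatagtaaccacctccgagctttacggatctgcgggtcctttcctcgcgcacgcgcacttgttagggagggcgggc
STT3A held 2 and MAGT1 held 3 CCAAT boxes, and OSTC held none. Of the 7 subunits with a promoter searched, 4 held CCAAT (STT3A, MAGT1, DDOST and DAD1), against 32% of 35116 promoters. TUSC3, STT3B and RPN1 were not searched. Each subunit was searched at its farthest upstream start alone, while the 35116 promoters count every start listed, so the shares differ in unit. The endoplasmic reticulum stress elements ERSE and ERSE-II, both of which include a CCAAT box, and the shorter TGACGTGG were also searched on both strands. They were in none of the 7, against 0.074%, 0.0513% and 0.612% of all promoters. A match of letters does not show that a factor binds.

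Other genes of the glycosylation pathway were counted from lists, to be read against the 6.15% of all genes that rose and the 6.29% that fell with runs summed. Among 12 genes of glucose trimming and the calnexin cycle, which processes the new glycan and checks folding, 2 rose and 3 fell with runs summed. PRKCSH, a subunit of glucosidase II, fell by 0.60 ± 0.14 (edgeR adjusted p = 0.00192), and the glucosidase genes MOGS and GANAB were the others that fell. EDEM3, of mannose trimming, and UGGT2, a folding sensor, rose by 0.53 and 0.57. Of 24 genes that assemble the oligosaccharide on dolichol, 5 fell and none rose, among them DPM3, a subunit of dolichol-phosphate mannose synthase, at -1.09 ± 0.14 (edgeR adjusted p = 6.87e-08), and DPAGT1, which starts the assembly. Of 10 translocon partners, 3 fell and none rose, with SEC61A1, the pore subunit, at -0.64 ± 0.14 (edgeR adjusted p = 0.000721). The list medians were -0.29, -0.25 and -0.17, against 0.00 for all genes.

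MAGT1 and TUSC3 have also been linked to magnesium transport, so 13 genes of magnesium transport were counted, of which 1 rose and 2 fell, against 6.15% and 6.29% of all genes. TRPM7, a magnesium channel with a kinase domain, rose by 0.69 ± 0.14 (edgeR adjusted p = 0.000651), and CNNM4 and MMGT1 fell. The small subunits TMEM258 and KRTCAP2, of which KRTCAP2 belongs to the STT3A-type complex, did not pass. The set 1 ratio for KRTCAP2 was 0.957 (0.909 to 1.01), and its set 2 ratio was 1.31 (1.25 to 1.38).

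In H9, no subunit was called with eIF2A shRNA, as for 0% of 9751 genes by edgeR or DESeq2, while no subunit and 84 genes had an unadjusted edgeR p under 0.05. This fit too took its spread from between sets (chi-square 2.75 and 3.13 per degree of freedom). Within sets it was 1.04 and 1.07, so a pass was unlikely in this fit. With the set number added to the fit, no subunit and no other gene passed either. The subunits' log2 changes ran from -0.15 for MAGT1 (95% interval -0.56 to 0.25) to 0.18 for OST4 (-0.17 to 0.53). STT3A had 442.3 and 534.1 CPM with eIF2A shRNA, against 443.8 and 528.7 CPM with control shRNA, a log2 change of 0.00 (-0.33 to 0.34). OSTC stood at 0.00 (-0.42 to 0.41) and STT3B at -0.03 (-0.34 to 0.29). The difference of the eIF2A effect, H9 minus HEK293T with runs summed, passed for 0 of 10 subunits and 0% of 12911 genes by edgeR or DESeq2. It was 0.45 ± 0.20 for STT3A (edgeR adjusted p = 0.563), 0.47 ± 0.23 for DAD1 (0.59) and -0.33 ± 0.21 for STT3B (0.703), and STT3A and DAD1, with 1059 of all genes, had an unadjusted p under 0.05. In none of the pathway lists was a gene called in H9, where the lowest p of each list belonged to EDEM3 (-0.49), SRD5A3 (-0.42), SEC61G (-0.21), MMGT1 (-0.70) and TMEM258 (0.10).

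Most subunits differed between the cell lines, with the largest difference in MAGT1. In control libraries, 9 of 10 subunits differed in H9 from HEK293T, 6 higher and 3 lower, against 70% of 12911 genes (33.5% higher, 36.5% lower). Cell line, arsenite and IP cannot be told apart in this contrast. MAGT1 had 115.4 and 144.9 CPM in the H9 controls, against 735.5 to 755.3 CPM in the 4 HEK293T controls, with a log2 change of -2.70 ± 0.16 (edgeR adjusted p = 3.05e-16). TUSC3 had 92.6 and 79.4 CPM in H9, against 21.5 to 38.7 CPM in HEK293T, higher by 1.30 ± 0.19 (edgeR adjusted p = 4.95e-07). The cell lines did not overlap in either gene, and the share of all genes without overlap was not counted.

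STT3B was higher in H9 by 1.62 ± 0.15 (edgeR adjusted p = 4.81e-11), at 235.9 and 231.6 CPM in H9 controls, against 59.3 to 75.0 CPM in HEK293T controls. STT3A did not pass, at -0.25 ± 0.14 (edgeR adjusted p = 0.124). Of the shared subunits, DDOST was higher by 1.39 ± 0.14, RPN2 by 0.93 ± 0.13, RPN1 by 0.70 ± 0.13 and OST4 by 0.48 ± 0.17, while DAD1 was lower at -1.81 ± 0.16. OSTC was lower at -0.84 ± 0.16. Every one of these had an edgeR adjusted p under 0.05, the weakest being OST4 (0.01), whose call was lost without the HEK293T control of set 1 (0.154) or the H9 control of set 1 (0.0886). STT3A was called without the H9 control of set 2 (0.0448). The median of all genes was -0.07 with TMM scaling and 0.11 with library size alone, and the same count of subunits was called each way under both.

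As shares of reads, TUSC3 made up 33.9 to 45.3% of TUSC3 plus MAGT1 in the 4 H9 libraries, against 2.76 to 9.56% in the 8 HEK293T libraries. STT3B made up 30.5 to 34.7% of STT3A plus STT3B in H9, against 10.9 to 21.0% in HEK293T. These compare libraries and not molecules, since coding lengths were not used.

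**Figure D4:**
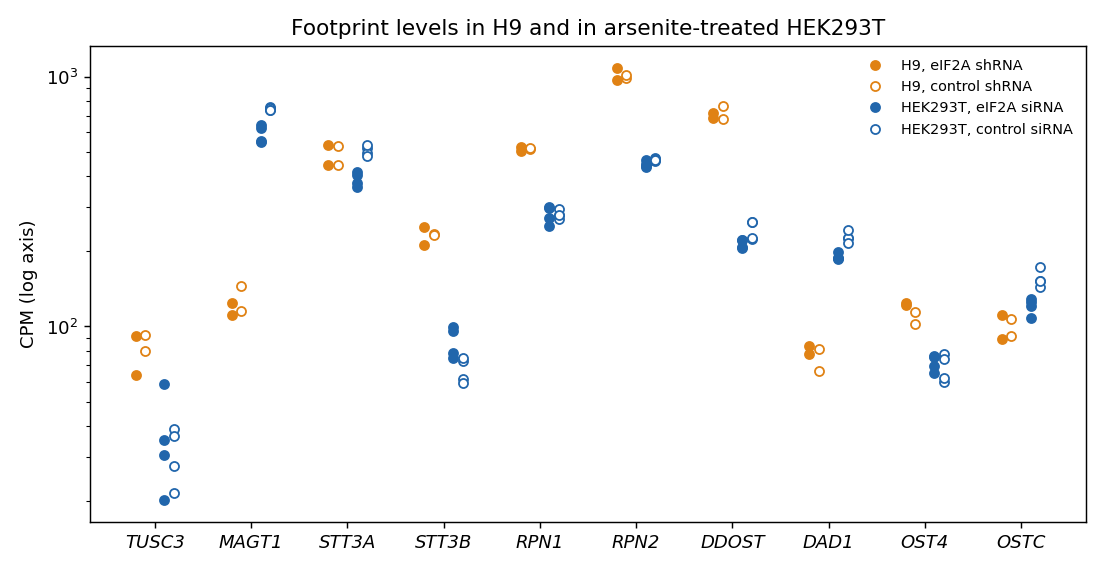
Level of each subunit in CPM in the 4 H9 libraries and the 8 HEK293T libraries, on a log axis. Filled points are eIF2A and open points control shRNA or siRNA. MAGT1 and DAD1 lie lower in H9, TUSC3, STT3B, RPN1, RPN2, DDOST and OST4 lie higher, and the lines overlap in STT3A and OSTC.

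**Figure D5:**
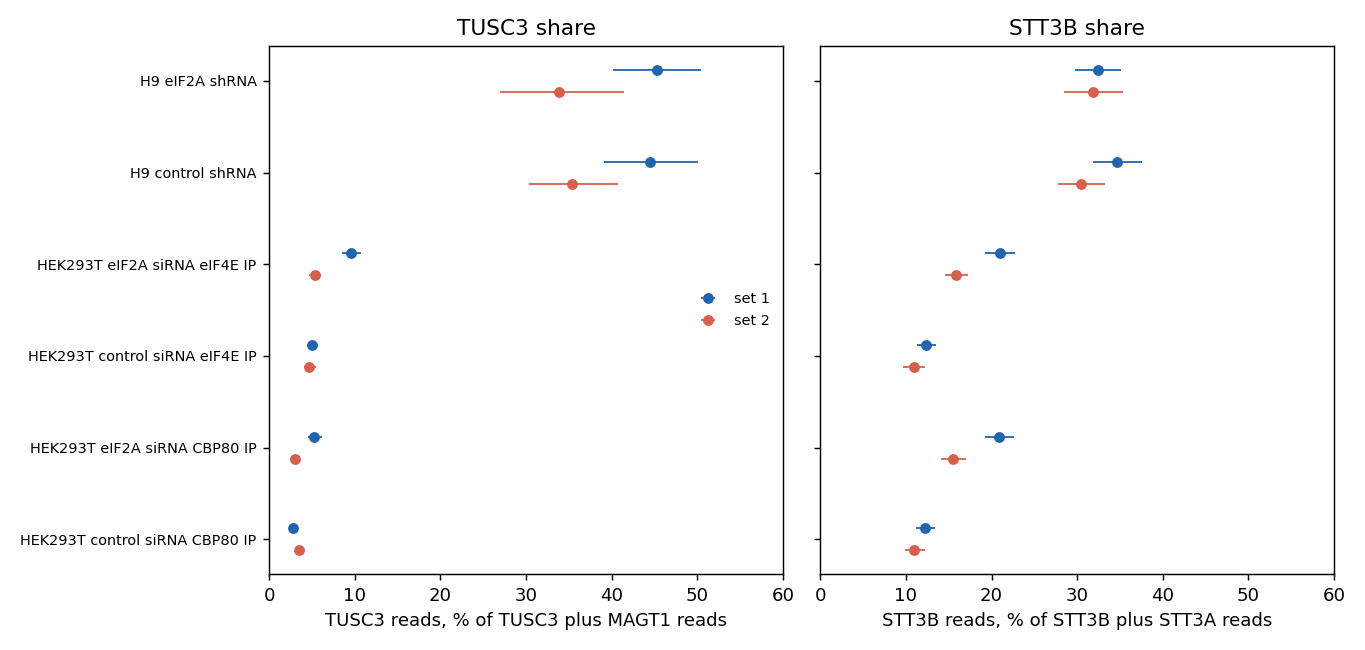
Share of reads of each paralog pair that fell on TUSC3 or on STT3B in each library, in percent, with 95% Clopper-Pearson intervals. All H9 libraries lie above all HEK293T libraries in both shares.

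The markers of the cells went with their labels in part. Summed over 10 pluripotency genes, H9 held 5251 to 5539 CPM and HEK293T 98.3 to 116 CPM, but POU5F1 was at 0 in every library. Every other gene of that list was counted in all H9 libraries, the lowest being NANOG at 21.3 to 35.1 CPM. Whether POU5F1 reads could be counted in these data was not tested. A list of 7 fibroblast or feeder genes summed to 920 to 1210 CPM in H9 and 19.9 to 27.0 CPM in HEK293T. THY1, TAGLN, COL1A1 and COL1A2 held most of it, and DCN and LUM were at 0 in H9. Endoderm, mesoderm and neural lists each summed to at most 10.6 CPM in H9, and the part of these genes in the difference between lines was not tested.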

How the data were processed

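Ribosome footprints were counted in 12 libraries. The deposited values are raw counts of reads per RefSeq coding sequence, not normalized, as their names and whole-number values show; per the submitters' processing notes, cutadapt, STAR 2.5.2b and hg19 were used. Counter, strand setting and annotation: not given in the sources used here. Therefore reads of overlapping genes cannot be told apart by strand. Rows naming no gene, 87.5 to 89.5% of counts in HEK293T and 96.2 to 96.5% in H9, were left out. Of 19305 accessions, 18888 were named through RefSeq (GRCh38.p14), and 417 kept their accession. The limit for a gene at 0 is 3 counts, or 0.519 to 3.2 CPM. Intervals cover counting error only, since reads are not independent molecules.

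The test was the quasi-likelihood test of edgeR 4.0.16 under R 4.3.3 (filterByExpr, TMM, robust fit, Benjamini-Hochberg, 0.05); DESeq2 1.42.0 was an alternative. HEK293T libraries shared 1 fit, IP runs were also summed to 4 libraries with 2 residual degrees of freedom, and H9 was set against HEK293T in a fit of 8. Levels are CPM of total coding reads. The fits were tested on simulated counts. The members, lists and rule for named genes (members, EIF2A, up to 4 called genes per list, the 5 genes most like TUSC3) were chosen with earlier results of these data known. The planned values per codon were not computed, because coding lengths were not used here. The interaction of cell line and eIF2A label was added after the data were seen. The main fits did not pair samples by set, of which there are 2 per comparison. IP pairs, sums and ratios per set were matched by set number.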

Additional observations from a re-analysis of the deposited data

How the results depend on the processing

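Counts of subunits called moved with the processing in HEK293T. Under CBP80 IP, 1 was called, against 3 with no count filter, 3 with DESeq2, 2 with those 4 libraries fitted alone, and 0 to 3 leaving out 1 library. Under eIF4E IP, 0 were called, against 1 with no filter, 1 with DESeq2, 1 with the 4 libraries alone, and 0 to 1 leaving out 1. With runs summed, 3 were called, against 1 with library size alone and 0 to 4 leaving out 1. With the set number as a replicate block, 6 were called under CBP80 IP, 6 under eIF4E IP and 5 summed. Over all genes these called 2943 and 2776 of 11778 by IP label, and 2990 of 12331 summed. STT3B was then called higher in all 3 (edgeR adjusted p = 0.0197, 0.0177 and 0.0273, in that order) and DAD1 lower in all 3 (0.00314, 0.000966 and 0.00972), while DDOST was called lower under CBP80 IP (0.0263) and eIF4E IP (0.0197) but not summed (0.0548). The others called were MAGT1, STT3A and OSTC, all lower. These 3 comparisons draw on the same libraries, so their calls do not repeat one another independently. By IP label, near-identical IP pairs also entered the blocked fit as separate samples. Set deviations correlated at 0.447 and 0.443 in the IP pairs and 0.548 in H9, but 2 pairs do not establish pairing. Counts over all genes also moved: under CBP80 IP 473, against 287 with library size alone (154 higher, 133 lower), 994 with no filter, 863 alone and 2943 blocked, with 3 to 818 leaving out 1; under eIF4E IP 381, against 186 (95 higher, 91 lower), 869, 1086 and 2776, with 0 to 748; summed 1534, against 735 with DESeq2 and 2990 blocked, with 75 to 2086. The H9 and interaction counts stayed at 0, except 1 gene for H9 minus HEK293T leaving out 1, and H9 over HEK293T called 8 to 10 subunits. Single subunits turned sign near 0: with library size alone, TUSC3 (0.0464) and RPN1 (0.0659) under CBP80 IP and OST4 under eIF4E IP (0.0535) and summed (0.0708); in H9, STT3A with RLE (-0.000597) and no filter (-0.00396), and OSTC with DESeq2 (0.00183). Leaving out 1 library, the ranges that crossed 0 were, under CBP80 IP, TUSC3 -0.31 to 0.19, RPN1 -0.0480 to 0.0124 and OST4 -0.18 to 0.23; under eIF4E IP, TUSC3 -0.13 to 0.51 and OST4 -0.19 to 0.12; summed, TUSC3 -0.18 to 0.37 and OST4 -0.18 to 0.16; and in H9, TUSC3 -0.41 to 0.0768, MAGT1 -0.32 to 0.0301, STT3A -0.15 to 0.15, STT3B -0.16 to 0.11, RPN1 -0.0446 to 0.0285, RPN2 -0.0573 to 0.13, DDOST -0.14 to 0.0648 and OSTC -0.16 to 0.17. The cause was not tested. H9 depth, with 60 to 172 TUSC3 reads, limits the smallest change detectable there.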
